A study of Homo sapiens with 18 samples.

Results

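The 38 genes described here encode the chaperones and folding enzymes of the endoplasmic reticulum (ER) and the sensors and effectors of the unfolded protein response (UPR). They were listed by symbol from their known roles, with earlier results of these data known, and all 38 were found among the 16575 genes of the deposited table of CPM values (reads scaled to a common library size). All 38 also reached 5 CPM in at least 1 library, as did 13022 genes in all. The 18 libraries were made by CAGE-seq, which counts capped 5' ends of transcripts, from the human bladder carcinoma lines CAL-29, HT-1376 and RT-112 (3 lines). Each was stably transduced with 2 lentiviral vectors in turn, at a multiplicity of infection of 3. The first vector (pLenti-GIII-CMV-GFP-2A-Puro, puromycin selection) was a control (K) or carried WWOX (W), and the second (pLKO-Neo-CMV, G418 selection) was a control (K) or carried AP-2α (A) or AP-2γ (C). The 6 variants are therefore KK (both controls), KA (control and AP-2α), KC (control and AP-2γ), WK (WWOX and control), WA (WWOX and AP-2α) and WC (WWOX and AP-2γ). All variants, KK included, carried both vectors and were under both selections. Each variant was sequenced once in each line, so differences within 1 line have no replicate check, and the lines serve as the replicates of a variant.

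The ER folds secreted and membrane proteins, and the chaperone HSPA5 (BiP) holds unfolded chains and keeps the 3 stress sensors of the ER membrane silent. When unfolded proteins accumulate, ATF6 is cleaved to a transcription factor, ERN1 (IRE1α) splices the XBP1 mRNA, and EIF2AK3 (PERK) slows translation and raises ATF4. ATF6 and XBP1 then raise the transcription of chaperones, disulfide isomerases and degradation factors, while ATF4 acts on amino acid and redox genes. AP-2α (TFAP2A) and AP-2γ (TFAP2C) are transcription factors of epithelia, and WWOX is a tumour suppressor that binds AP-2γ.

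The promoters of many of these genes carry the ER stress response element (ERSE), which ATF6 and XBP1 recognise together with the CCAAT-binding factor NF-Y, or its relative ERSE-II. Their sequences are shown as a description. In WK and WC of CAL-29 all 38 genes were below KK, with or without these elements and by differing amounts, as described further on. Whether the elements have a part in this was not tested. RefSeq promoter windows on GRCh38.p14, from 250 bases before to 50 bases after a transcript start, were at hand for 35 of the 38 genes, in 44 windows. The letters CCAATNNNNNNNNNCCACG (ERSE, either strand) were found for 8 of these 35 genes and in 10 of their 44 windows. The shares were 0.0769% of all 35116 windows and 0.150% of the genes past the filter of 5 CPM. Among the 10 are several windows of CANX that hold the same match. The matches upstream of the start follow, on the strand of the gene and with the motif in capitals:
HSPA5 (chr9:125241386-125241414, minus): cttcaCCAATCGGCGGCCTCCACGacggg
HSP90B1, distal (chr12:103930211-103930239, plus): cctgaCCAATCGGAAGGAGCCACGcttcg
HSP90B1, proximal (chr12:103930316-103930344, plus): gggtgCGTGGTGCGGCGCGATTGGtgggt
XBP1 (chr22:28800598-28800626, minus): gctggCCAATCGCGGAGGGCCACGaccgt
CALR (chr19:12938379-12938407, plus): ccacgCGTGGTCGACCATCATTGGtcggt
CANX (chr5:179698773-179698801, plus): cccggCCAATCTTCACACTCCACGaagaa
CRELD2 (chr22:49918549-49918577, plus): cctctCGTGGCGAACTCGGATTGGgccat
PDIA6 (chr2:10812848-10812876, minus): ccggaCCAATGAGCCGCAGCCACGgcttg
ERO1B (chr1:236282178-236282206, minus): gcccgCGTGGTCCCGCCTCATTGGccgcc

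The shorter ERSE-II (ATTGGNCCACG, either strand) was found for 3 of the 35 genes. The shares were 0.0541% of all windows and 0.140% of the genes past the filter. The matches follow, with 2 copies upstream of HYOU1:
HERPUD1 (chr16:56932020-56932040, plus): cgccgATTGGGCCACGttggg
SDF2L1 (chr22:21642109-21642129, plus): ggaagCGTGGACCAATcaaaa
HYOU1, distal (chr11:119057375-119057395, minus): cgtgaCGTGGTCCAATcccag
HYOU1, proximal (chr11:119057269-119057289, minus): tgggaCGTGGTCCAATgagta
Where the motif reads CGTGG first, it lies on the strand opposite to the gene. The letters TGACGTGG are the core of the UPR element bound by ATF6 and XBP1. They were found for 3 genes (DNAJC10, HYOU1 and TXNDC5), against 0.729% of all windows and 1.23% of the genes past the filter. At HYOU1 they overlap the distal ERSE-II. TGATGNAA, the core of the element bound by ATF4 with C/EBP factors, was found for 2 genes (CREB3L2 and HERPUD1) against 3.62% of windows. Of the genes past the filter, 2.60% had it. The AP-2 palindrome GCCNNNGGC was found for 14 of the 35 genes, that is in 16 of 44 windows, against 23.2% of all windows and 39.2% of the genes past the filter. A match of letters is not a bound site. The longer upstream sequence of HSPA5 is given up to the first annotated exon base (chr9:125241383-125241543, minus strand), with the ERSE in capitals, and that of HERPUD1 likewise (chr16:56931942-56932141, plus strand), with the ERSE-II in capitals:
HSPA5: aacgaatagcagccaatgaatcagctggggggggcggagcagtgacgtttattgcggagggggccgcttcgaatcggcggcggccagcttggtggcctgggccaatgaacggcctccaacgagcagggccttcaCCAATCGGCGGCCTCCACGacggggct
HERPUD1: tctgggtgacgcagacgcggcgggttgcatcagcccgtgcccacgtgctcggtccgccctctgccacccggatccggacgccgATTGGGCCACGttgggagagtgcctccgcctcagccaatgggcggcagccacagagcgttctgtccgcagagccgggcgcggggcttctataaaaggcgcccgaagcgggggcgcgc

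Before the results, 1 library has to be set apart. The library labelled CAL-29 KC had a median correlation of 0.940 with the libraries of HT-1376 and of 0.741 with the other libraries of CAL-29 (across genes, log2 scale). A gene was taken as specific to a line when its KK library had at least 20 CPM and KK of both other lines had under 0.5. Of 68 genes specific to CAL-29, 7 reached 10% of their KK level in that library, and of 47 specific to HT-1376, 46 did. It is shown apart below, but it remains in the fits of the variants against KK. Reads on genes numbered 13357102 to 17958572 per library. Of the epithelial markers EPCAM, CDH1, KRT7, KRT8, KRT18 and KRT19, all 6 were above 5 CPM in all 18 libraries, and so were the urothelial markers GATA3, UPK1B and TP63, whereas UPK3A reached 5 CPM in 1 library. Of 12 markers of other cell types, 7 had no row and the rest summed to 3.44 to 59.5 CPM, with COL1A1 at 5 CPM or more in 13 libraries, CDH2 and COL1A2 in 3 each, VIM in 1 and COL3A1 in 0. WWOX tags were not raised in WK over KK in RT-112 (22.3 against 26.0 CPM) or HT-1376 (18.6 against 22.4 CPM) and were higher in CAL-29 WK (154.9 against 63.7 CPM), but not in CAL-29 WA (69.3 CPM) or WC (62.4 CPM). A transcript from the vector promoter starts in vector sequence, so its tags need not be counted at the WWOX gene, and this value does not check the label. TFAP2C stood at 57.9 CPM in RT-112 KK and 179.9 CPM in the library labelled RT-112 WA, where TFAP2A was 25.3 CPM.

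The largest differences between variants lay within CAL-29, where most of the 38 genes were lower in WK and WC than in KK. HSPA5 (ENSG00000044574.8, chr9:125234853-125241382, minus strand) stood at 6321 CPM in KK, 3903 in KA, 373 in WK, 6795 in WA and 406 in WC. The level was 4247 CPM in the library labelled CAL-29 KC. KK, KA and WA were thus high and WK and WC low. HSPA5 was 16.97-fold lower in WK than in KK (95% counting interval 16.6 to 17.4) and 15.6-fold lower in WC than in KK (15.2 to 15.9). In WA it was 18.2-fold higher than in WK (17.8 to 18.7). In HT-1376 it stood at 369 CPM in KK, at 404 and 464 in KA and KC, and at 157, 331 and 219 in WK, WA and WC, so WK and WC were again the lowest, by a smaller margin. In RT-112 it stayed between 52.8 and 87.4 CPM, with KK at 59.8 and WK at 60.3. Exact binomial intervals here and below cover counting error only, since each value comes from 1 library and PCR copies were not told apart. In bulk libraries, fewer cells with a transcript and less of it per cell cannot be told apart.

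**Figure D1:**
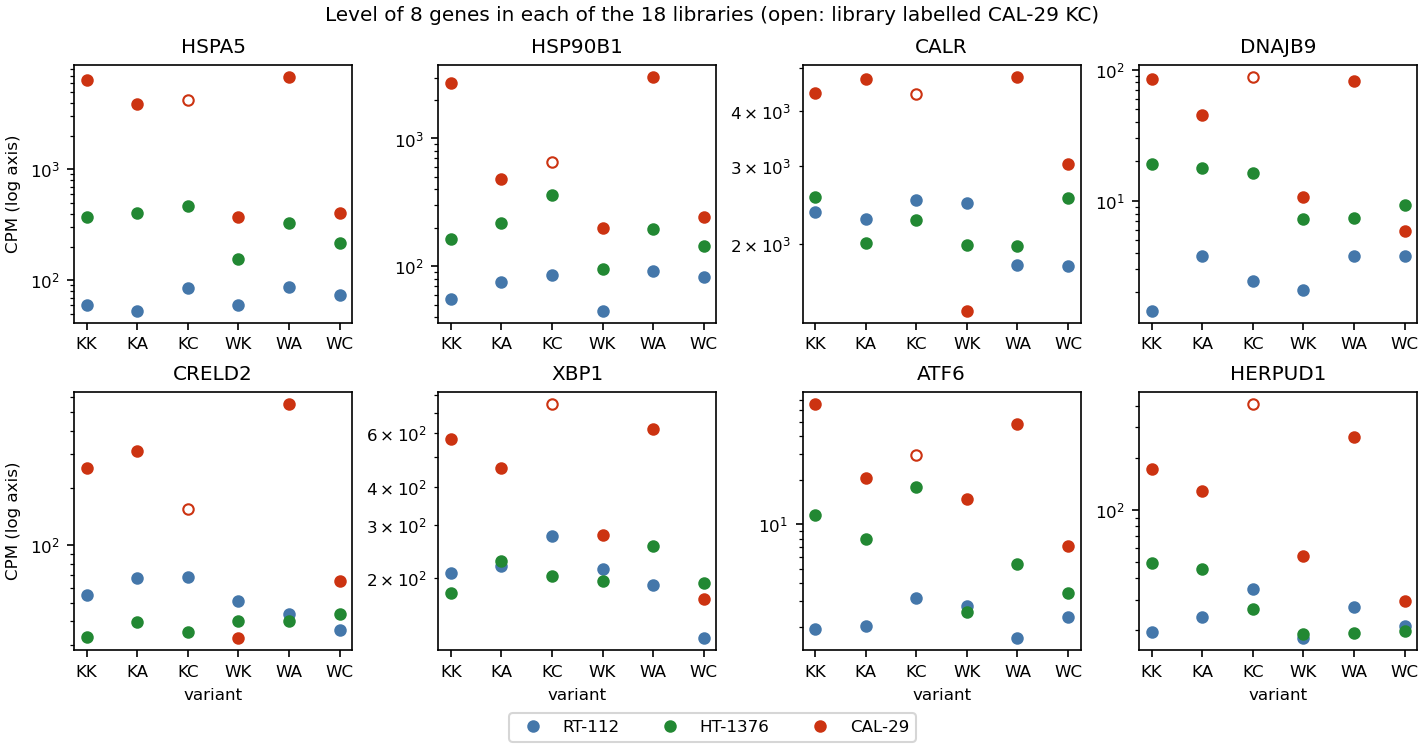
Level in CPM (log axis, different range in each panel) of HSPA5, HSP90B1, CALR, DNAJB9, CRELD2, XBP1, ATF6 and HERPUD1 in the 6 variants of each line, with 1 point per library and the library labelled CAL-29 KC as an open point. In CAL-29 the points of WK and WC lie below those of KK, KA and WA in every panel, for HSPA5 at 373 and 406 CPM against 3903 CPM or more.

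The other chaperones and cochaperones of the ER lumen followed HSPA5 in CAL-29. HSP90B1 (GRP94, the ER Hsp90) measured 2740 CPM in KK, 482 in KA, 198 in WK, 3030 in WA and 243 in WC of CAL-29, and 659 in the library labelled KC. It was 13.8-fold lower in WK than in KK (13.3 to 14.3) and 11.3-fold lower in WC (10.9 to 11.7). Unlike HSPA5, HSP90B1 was also low in KA, 5.68-fold under KK (5.56 to 5.82). In HT-1376 its values ran from 95.02 CPM in WK to 360 in KC, and in RT-112 from 44.6 in WK to 91.8 in WA. DNAJB9 (ERdj4, an Hsp40 cofactor of HSPA5) measured 84.8 CPM in KK, 45.3 in KA, 10.6 in WK, 81.6 in WA and 5.90 in WC of CAL-29. SDF2L1, which keeps the HSPA5 cycle of the ER cofactor DNAJB11 running, measured 729 CPM in KK, 848 in KA, 113 in WK, 1040 in WA and 285 in WC. HYOU1 (GRP170, nucleotide exchange factor of HSPA5) fell from 679 CPM in KK to 70.8 in WK and 116 in WC and was at 1000 CPM in WA. All 9 genes of this group (with HSPA13, DNAJB11, DNAJC3 and DNAJC10) were over 2-fold lower in both WK (16.2% of all genes) and WC (32.2%). Their median log2FC was −2.94 in WK/KK and −3.43 in WC/KK.

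CALR and CANX, the lectin chaperones that hold glycoproteins for folding, differed from each other. CALR measured 4392 CPM in KK, 4715 in KA, 1414 in WK, 4767 in WA and 3041 in WC of CAL-29, so that WK was 3.11-fold (3.06 to 3.15) and WC 1.44-fold (1.43 to 1.46) under KK. CANX, the membrane-bound lectin, fell further, from 2145 CPM in KK to 343 in WK and 244 in WC, with 727 in KA and 1679 in WA. In RT-112 and HT-1376, CALR ranged from 1787 to 2550 CPM over the 12 libraries.

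Among the genes of disulfide formation, 6 of 8 were over 2-fold lower in WK (16.2% of all genes) and 6 of 8 in WC (32.2% of all genes) of CAL-29. PDIA4 fell from 3120 CPM in KK to 327 in WK and 734 in WC, and PDIA3 (ERp57, which works with the lectin chaperones) from 1683 to 362 and 447. PDIA5 was at 45.7 CPM in KK, 23.0 in WK and 31.6 in WC. ERO1A, the oxidase that recharges the isomerases, measured 117 CPM in KK, 45.1 in KA, 59.5 in WK, 113 in WA and 43.4 in WC, so that here KA lay between WK and WC. The stress-induced proteins MANF, a secreted cofactor of HSPA5, and CRELD2, a lumenal disulfide isomerase, were both over 2-fold lower in WK and WC. MANF measured 578 CPM in KK, 636 in KA, 73.6 in WK, 678 in WA and 159 in WC. CRELD2 measured 254 CPM in KK, 314 in KA, 32.5 in WK, 551 in WA and 65.0 in WC. It was the 1 gene of the 38 over 2-fold higher in WA than in KK (2.17-fold, 2.10 to 2.25), against 3.72% of all genes.

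The sensors and transcription factors were lower as well, all 5 over 2-fold in both WK (16.2% of all genes) and WC (32.2%). ATF6 measured 65.8 CPM in KK, 20.7 in KA, 15.0 in WK, 48.1 in WA and 7.08 in WC of CAL-29. In HT-1376 ATF6 stood at 11.6 CPM in KK, at 8.00 and 18.01 in KA and KC, and at 2.52, 5.37 and 3.40 in WK, WA and WC, and in RT-112 it did not exceed 3.15 CPM. ERN1 measured 55.1 CPM in KK, 34.3 in KA, 16.7 in WK, 39.6 in WA and 9.39 in WC of CAL-29, against at most 7.27 CPM in RT-112 and 3.12 in HT-1376. EIF2AK3 measured 27.5 CPM in KK, 9.51 in KA, 9.5 in WK, 31.7 in WA and 6.02 in WC. For ATF6 and EIF2AK3 the KA library was therefore also low. XBP1 measured 575 CPM in KK, 460 in KA, 277 in WK, 617 in WA and 171 in WC, and 748 in the library labelled KC. CAGE counts transcript starts and so does not tell spliced from unspliced XBP1.

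Of the 7 genes of retrotranslocation and degradation, 3 were over 2-fold lower in WK and 4 in WC, against the same 16.2% and 32.2% of all genes. SEL1L, the adaptor of the ligase SYVN1 (HRD1), had the largest fall of the 38 in WC, from 354 CPM in KK to 19.1 (18.5-fold, 16.6 to 20.7), with 37.5 in WK, 66.6 in KA and 297 in WA. HERPUD1, which recruits the ligase complex, measured 172 CPM in KK, 128.5 in KA, 53.7 in WK, 263 in WA and 29.6 in WC, and 408 in the library labelled KC. In HT-1376 it was 48.9 CPM in KK and 45.4 in KA, with 26.5 in KC and 19.0 to 19.9 in WK, WA and WC. DERL1 and DERL2, which form part of the retrotranslocation channel, moved less, DERL1 from 76.2 CPM in KK to 46.4 in WK and 50.2 in WC. SEC61B, a subunit of the translocation channel, measured 693 CPM in KK, 1044 in KA, 447 in WK, 714 in WA and 623 in WC. SEC61A1, the pore subunit, was at 457 CPM in KK, 217 in WK and 188 in WC. WFS1, an ER membrane protein linked to calcium balance, was low throughout CAL-29, at 16.9 CPM in KK and 8.51 in WK.

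**Figure D2:**
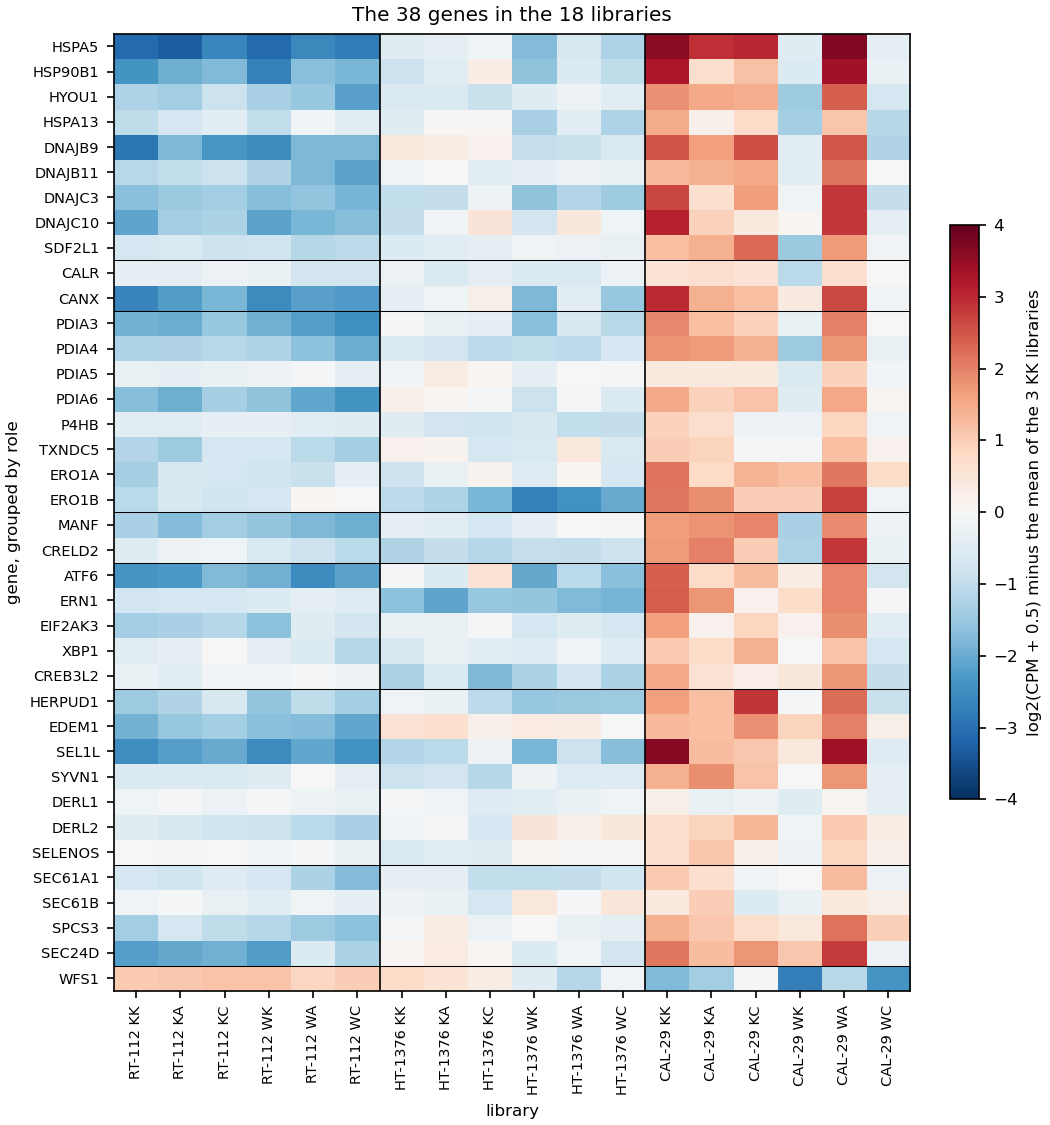
log2(CPM + 0.5) of the 38 genes (rows, grouped by role between thin lines) in the 18 libraries (columns), each row shown as the difference from the mean of its 3 KK libraries, red higher and blue lower. The CAL-29 libraries KK, KA, WA and the one labelled KC are mostly red, CAL-29 WK and WC are paler with genes on both sides of 0, and WFS1 in the bottom row has the opposite order of lines.

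Counted over the 38 genes, 29 were over 2-fold lower in CAL-29 WK than in KK, against 16.2% of all 13022 genes, and 29 were so in WC, against 32.2%. WK and WC are compared with the same KK library. In both variants all 38 genes had a log2FC below 0, with a median of −1.65 in WK/KK (−0.15 over all genes) and of −1.88 in WC/KK (−0.50 over all genes). In WA/KK none of the 38 was over 2-fold lower (2.6% of all genes) and the median was 0.18. In KA/KK 9 were over 2-fold lower (22% of all genes), among them HSP90B1, SEL1L, DNAJC10 and DNAJC3, with a median of −0.36. In the library labelled KC 12 were over 2-fold lower than in KK (31.2% of all genes) and 3 over 2-fold higher (12.5%). Set against WK, the other WWOX library with a control second vector, 35 of 38 genes were over 2-fold higher in WA (12.4% of all genes), the exceptions being DERL1, ERO1A and SEC61B, and all 38 had a log2FC above 0. With TMM factors, which bring the median of all genes in WC/KK from −0.50 to 0.00, the 29, 29 and 35 genes became 22, 22 and 29, against 11.2%, 18.3% and 7.10% of all genes, and CALR, PDIA5, DERL2, SEC61B, SELENOS and SPCS3 were no longer below 0 in WC/KK.

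In HT-1376 fewer of the 38 genes were over 2-fold lower in WK and WC than in CAL-29. In WK/KK 9 of the 38 genes were over 2-fold lower, against 14% of all genes: ATF6 (log2FC −2.0), PDIA3 (−1.64), ERO1B (−1.64), CANX (−1.46), DNAJB9 (−1.34), HERPUD1 (−1.34), HSPA5 (−1.23), WFS1 (−1.22) and PDIA6 (−1.05). In WC/KK 4 of the 38 were lower, and this 10.5% was near the 10.6% of all genes. The median in WC/KK was −0.27, against −0.17 over all genes. In WA/KK 5 were lower (6.72% of all genes). In KA/KK (0.553% of all genes) and KC/KK (3.17%) there were none. Over 2-fold higher in HT-1376 were 2 genes in KC/KK (7.55% of all genes) and 1 in WA/KK (8.98%). None was so in WK/KK (8.15%), KA/KK (5.17%) or WC/KK (9.08%). Medians over the 38 genes in HT-1376 ran from −0.37 in WK/KK to 0.04 in KA/KK. In RT-112 no gene of the 38 was over 2-fold lower in WK (0.261% of all genes), KA (0.614%), KC (0.361%) or WA (1.19%), and 2 were in WC (3.69%), DNAJB11 and SEC61A1. Over 2-fold higher in RT-112 were 1 gene in KA (1.21% of all genes), 3 in WA (3.51%) and 2 in WC (3.03%). None was so in WK (1.44%) or KC (1.91%). The medians over the 38 genes in RT-112 lay between −0.09 and 0.30.

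**Figure D3:**
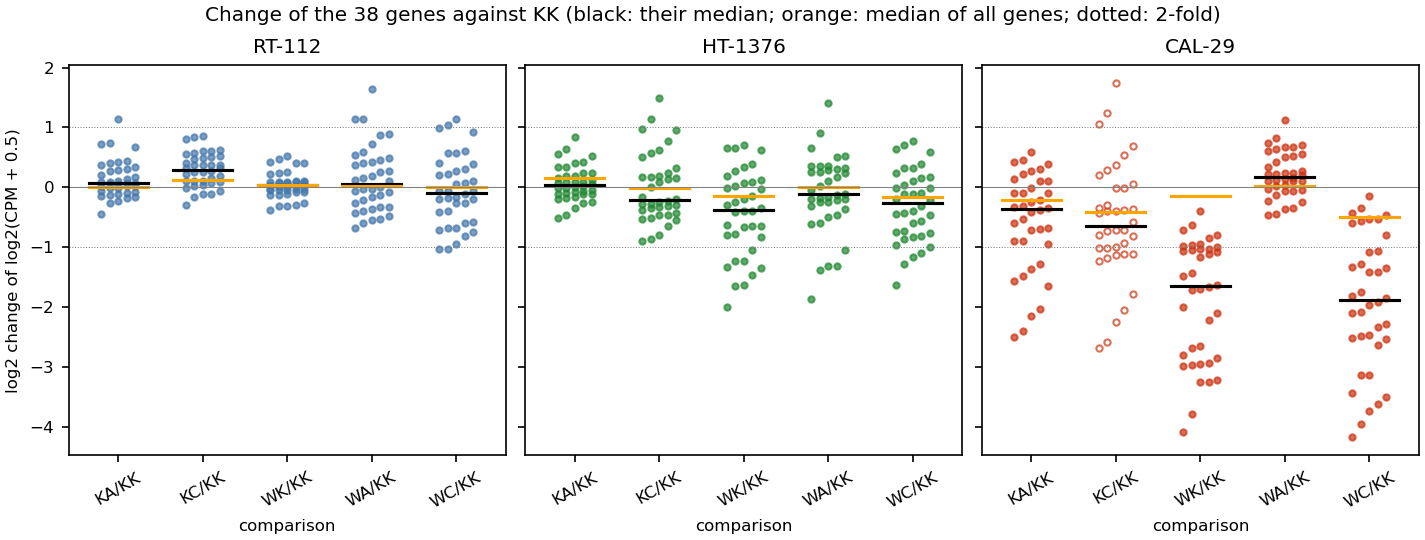
log2 change of log2(CPM + 0.5) against KK of the same line (vertical axis) for each of the 38 genes (points) in the 5 comparisons of each line, with the median of the 38 in black, the median of all 13022 genes in orange, 2-fold change as dotted lines and the library labelled CAL-29 KC as open points. In CAL-29 the medians of WK/KK (−1.65) and WC/KK (−1.88) stand far below the orange lines, whereas in RT-112 no median departs from 0 by more than 0.30.

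Other quantities differed between the same libraries. Transcripts of the replication-dependent histones, which lack poly(A) tails and are made in S phase, summed to 16786 CPM in KK, 21055 in KA, 15785 in WA, 51333 in WK and 59769 in WC of CAL-29, against 70450 to 129524 CPM in RT-112 and HT-1376. The TMM scaling factor was 1.51 in KK, 1.18 in KA, 1.32 in WK, 1.57 in WA and 1.04 in WC. The part of these quantities in the differences above was not tested. The median correlation with the other libraries of CAL-29 was 0.901 to 0.932 for KK, KA, WK, WA and WC.

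Taken with the lines as replicates, which is how the study compared its variants, none of this passed a test. In limma without a block for the line, 0 of 13022 genes passed an adjusted p of 0.05 in any of the 5 variants against KK, and 38 (WK), 7 (KA), 11 (KC), 37 (WA) and 84 (WC) genes had an unadjusted p under 0.05, none of them among the 38. The mean log2FC of the 38 genes in WK/KK was −0.75 ± 1.00 (SD over the lines, n = 3), with 0.04 for RT-112, −0.43 for HT-1376 and −1.87 for CAL-29. It was −0.76 ± 1.010 (n = 3) for WC, −0.12 ± 0.39 for KA, −0.10 ± 0.44 for KC and 0.08 ± 0.17 for WA. The KC value and the KC/KK fit include the library labelled CAL-29 KC, whose own mean was −0.58. Without CAL-29 the mean of the 38 genes was −0.19 for WK, −0.18 for WC, 0.10 for KA and 0.14 for KC. For HSPA5 the log2FC in WK/KK was −1.77 (SE 1.95, limma adjusted p = 0.999945). With the line as a block, again 0 genes passed, 506 had an unadjusted p under 0.05 in WK/KK and 1399 in WC/KK, and 8 and 9 of the 38 were among them. PDIA3 had the smallest p of the 38 in WK/KK, at −1.30 (SE 0.38, limma adjusted p = 0.928).

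Pooled over the second vectors, with the line as a block and without the library labelled CAL-29 KC, the W variants differed from the K variants by a mean of −0.38 over the 38 genes, and 35 of 38 were below 0. The lowest were ATF6 (−0.88, SE 0.38), HSPA5 (−0.87, SE 0.47) and CANX (−0.79, SE 0.35), and the highest SEC61B (0.05, SE 0.18), ERO1A (0.02, SE 0.24) and DERL2 (0.00, SE 0.20). No gene passed this test (1598 had a limma p under 0.05, 7 of the 38 among them), nor the tests of AP-2α (199 genes at p under 0.05, 1 of the 38) and AP-2γ (343 genes, none of the 38). The mean over the 38 genes was 0.35 for AP-2α, with 37 of 38 above 0, and −0.09 for AP-2γ. Without CAL-29 these means became 0.15 for AP-2α, with 25 of 38 above 0, 0.08 for AP-2γ and −0.20 for WWOX. The AP-2α effect uses the library labelled RT-112 WA, where TFAP2C was raised. With it left out the mean was 0.36, with 36 of 38 above 0, and again no gene was called. By line, the WWOX difference over the 38 genes averaged −0.83 for CAL-29, −0.30 for HT-1376 and −0.10 for RT-112. With TMM factors these were −0.82, −0.15 and −0.03. None of the 38 was called within a line, where limma called 77 genes in CAL-29 (0.591%), 1118 in HT-1376 (8.59%) and 0 in RT-112 (979 at an unadjusted p under 0.05). Of the 38, the unadjusted p was under 0.05 for 10, 5 and 0 in this order, against 12.3%, 26.3% and 7.52% of all genes. Among the 38, the smallest limma adjusted p was 0.246 in CAL-29 and 0.0632 in HT-1376. The interaction of WWOX and line was called for 393 genes, 3.02% of those tested, and for none of the 38, whose smallest adjusted p was 0.0948, for SELENOS. In CAL-29 the WWOX difference is not a plain average of WK/KK and WA/KA. WC also enters it, without a KC partner, through AP-2 terms shared by all lines. The mean over the 38 genes in CAL-29 was −1.87 in WK/KK, −1.92 in WC/KK and 0.79 in WA/KA. In WA/KA 35 of 38 genes were above 0, where the median of all genes was 0.29. Of the 38, 12 were over 2-fold higher in WA/KA (22.3% of all genes). With TMM factors the mean in WA/KA was 0.39, and 6 were over 2-fold higher (12.3% of all genes).

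Between the lines the 38 genes differed clearly, and CAL-29 was the highest for nearly all of them. HSPA5 had a median of 67.2 CPM (52.8 to 87.4) in the 6 RT-112 libraries, of 350 CPM (157 to 464) in the 6 of HT-1376 and of 3903 CPM (373 to 6795) in the 5 of CAL-29. RT-112 did not overlap with the other lines, and HT-1376 and CAL-29 overlapped through CAL-29 WK and WC. In limma, with variant and line as terms over 17 libraries, 35 of 38 genes were higher in CAL-29 than in RT-112 (56.5% of all genes) and 1, WFS1, was lower (15.9%). The 5 with the largest differences were HSPA5 (log2FC 4.82, SE 0.59, limma adjusted p = 3.87e-06), SEL1L (3.93), CANX (3.79), HSP90B1 (3.40) and DNAJB9 (3.21). Against HT-1376, 31 genes were higher in CAL-29 (42.5% of all genes) and 1 lower, WFS1 again (18.3%). Here ERO1B (3.36, SE 0.43), ERN1 (3.09, SE 0.33), SEL1L (2.78), HSPA5 (2.69) and CANX (2.18) led. Between HT-1376 and RT-112, 15 genes were higher in HT-1376 (42.6% of all genes), led by HSPA5 (2.14), EDEM1 (2.05), DNAJB9 (1.93), PDIA6 (1.63) and CANX (1.60), and 4 were lower (19.6%), ERO1B, ERN1, WFS1 and CREB3L2. The share of 15 was close to that of all genes. With TMM factors, the 35, 31 and 15 higher became 25, 21 and 11. Of all genes, 37.3% were then called higher in CAL-29 than in RT-112, and 30.3% higher in CAL-29 than in HT-1376. The 4 lower between HT-1376 and RT-112 became 7. The split of all genes between HT-1376 and RT-112 went from 5548 higher and 2552 lower to 3909 and 3822. The variants are not replicates of a line, so these tests measure the spread between variants.

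WFS1 ran against the others. It ranged from 106 to 133 CPM in RT-112, from 26.7 to 98.6 in HT-1376 and from 8.51 to 27.2 in CAL-29, and it was called lower in CAL-29 than in either other line (log2FC −2.85, SE 0.28, and −1.78, SE 0.28). In the library labelled CAL-29 KC it was 57.8 CPM.

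Within CAL-29 the WK and WC libraries reached the levels of HT-1376 for many genes. In KK, 36 of 38 genes were above the range of the 6 HT-1376 libraries, in KA 36 and in WA 36. In WK 16 were above that range, 13 within it and 9 below it, and in WC 12, 23 and 3. The library labelled KC, which shared its line-specific genes with HT-1376, had 33 genes above the HT-1376 range and none below. These counts against the HT-1376 range were not made over all genes or with TMM factors. In limma 42.5% of all genes were called higher in CAL-29 than in HT-1376. The ratio of the highest to the lowest library had a median over the 38 genes of 5.88 in CAL-29 (5 libraries), 2.04 in HT-1376 and 1.80 in RT-112. On the log2 scale the median range of the 38 was 2.52, 1.02 and 0.82 in this order, against 1.19, 1.02 and 0.70 over all genes.

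Each gene was also compared with HSPA5 over 17 libraries after subtracting its mean in each line. The correlations of the other 37 genes with HSPA5 had a median of 0.80, against 0.24 over all genes. They were highest for HSPA13 (r = 0.94), DNAJB9 (0.92), CANX (0.91), PDIA3 (0.90) and SEL1L (0.89) and lowest for SEC61B (0.20) and DERL2 (0.33). Outside the 38, the genes most like HSPA5 were ZNF165 (0.94), SLC6A9 (0.94) and NIBAN1 (0.93). These points share libraries and their depth, and they rest on CAL-29: over the 12 libraries of RT-112 and HT-1376 the median of the 37 was 0.25, against 0.17 over all genes, and CRELD2 (−0.35), MANF (−0.34) and SDF2L1 (−0.66) were then below 0. The genes with an ERSE had a median log2FC of −2.32 in CAL-29 WK/KK, against −1.49 for the other genes with a promoter window, and of −2.12 against −1.82 in WC/KK. The 3 genes with an ERSE-II (HERPUD1, HYOU1 and SDF2L1) had −2.69 and −2.52, and the 14 with an AP-2 palindrome −1.84 and −2.02.

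The other genes of the pathway were followed in 9 lists in the same libraries, and none of their genes was called in a fit against KK. The counts that follow are to be read against the 16.2% of all genes over 2-fold lower in CAL-29 WK/KK and the 32.2% in WC/KK. Among 19 targets of PERK and ATF4, 15 were over 2-fold lower in CAL-29 WK/KK (median −1.81) and 14 in WC/KK (median −2.17). In CAL-29 WA/KK 4 of them were, against 2.6% of all genes. Examples, chosen after their values were seen, are TRIB3, a pseudokinase induced by ATF4, with a log2FC of −2.94 in WK and −3.56 in WC, DDIT3 (CHOP, the transcription factor of ER stress-induced death), with −1.83 and −2.93, and the cystine transporter SLC7A11, with −3.82 and −3.86. ATF4 itself was at −0.82 and −0.38, and ATF5 was higher in WK, at 1.14. Of 18 genes of N-glycosylation and glycan trimming, 9 were over 2-fold lower in WK (median −1.06) and 9 in WC (−1.15). Signal recognition and translocation had 9 of 20 in WK (−0.89) and 8 in WC (−0.82), and COPII transport 6 of 21 (−0.64) and 11 (−1.03). For ER-associated degradation the counts were 5 of 19 (−0.60) and 9 (−0.69), and for other ER folding and oxidation factors 7 of 24 (−0.37) and 8 (−0.72), the last close to the share of all genes. Stress sensors and regulators outside the 38 had 2 of 16 (−0.19) and 6 (−0.58), close to the medians of all genes.

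For comparison, cytosolic and mitochondrial chaperones, which work outside the ER, had 7 of 23 over 2-fold lower in WK (median −0.48) and 9 in WC (−0.36). In that list HSPA9, HSPD1 and the chaperonin genes CCT2 and CCT5 were lower in both, whereas HSPA1A, HSPA1B and DNAJB1 were at 0.72, 0.46 and 0.45 in WK. HSPA1A and HSPA1B are near-identical copies whose reads may be split between them. Sterol synthesis, whose enzymes sit in the ER membrane under another control, separated WK from WC: 9 of 17 were over 2-fold lower in WK (median −1.05), and in WC none was lower and 4 were higher (median 0.33). Of all genes, 6.45% were over 2-fold higher in WC/KK. Set against WK, 13 of the 17 were over 2-fold higher in WC (3.49% of all genes). Between the lines, 16 of the 19 PERK and ATF4 targets were called higher in CAL-29 than in RT-112 and 0 lower, as were 17 of the 20 translocation genes, against 56.5% of all genes called higher. Of the 38 genes, HSPA5, PDIA3 and XBP1 have annotated pseudogenes, and their reads could in part be shared with them.

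**Figure D4:**
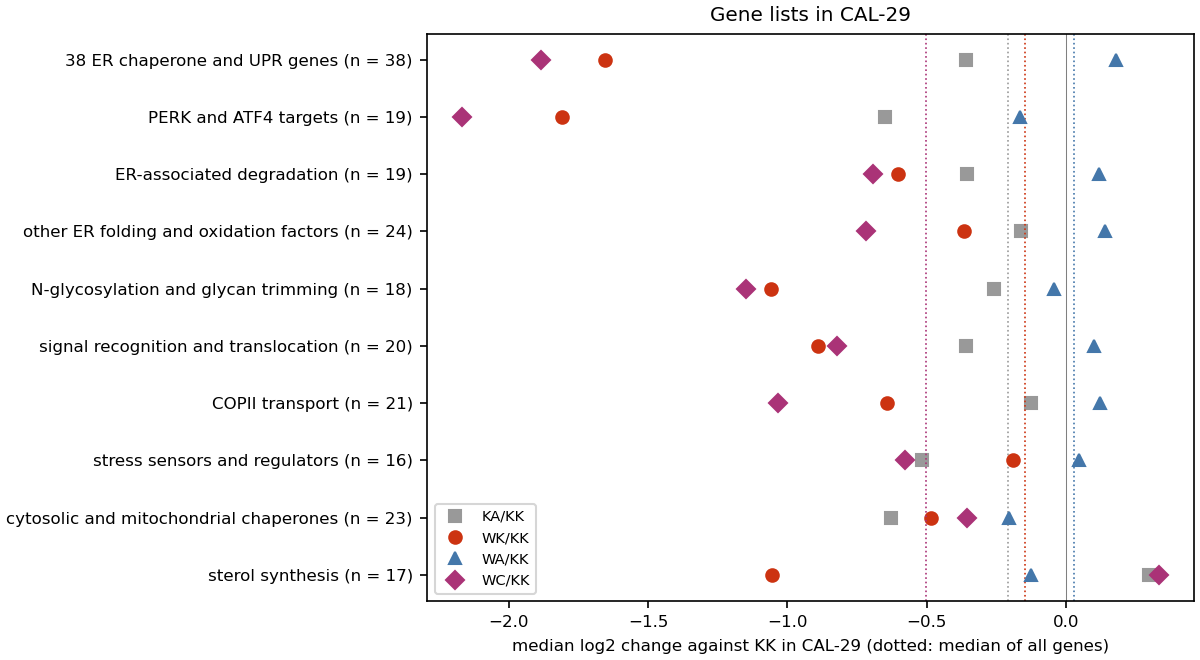
Median log2 change against KK in CAL-29 (horizontal axis) of the 38 genes and of the 9 related lists (rows, with the number of genes) for KA (squares), WK (circles), WA (triangles) and WC (diamonds), with the median of all genes for each comparison as a dotted line of the same colour. The 38 genes and the PERK and ATF4 targets have the lowest medians in WK (−1.65 and −1.81) and in WC (−1.88 and −2.17), and sterol synthesis is low in WK (−1.05) and not in WC (0.33).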

How the data were processed

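CAGE-seq libraries from 3 bladder carcinoma lines, 6 variants each and 1 library per variant and line, were compared. The authors aligned tags to hg38 with BWA and HISAT2 (version 2.0.5 in the submitters' processing notes) and deposited 1 table of CPM per gene, rounded to 2 decimals. Ensembl IDs were paired with GENCODE 44 symbols (16553 of 16575). Whole reads were recovered from the steps of the CPM values (99.97% to 99.99% of values whole within a tolerance of 0.0051 CPM).

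Genes reaching 5 CPM in 1 or more libraries were kept, and their log2(CPM + 0.5) was tested with limma 3.58.1 (trend, Benjamini-Hochberg, threshold 0.05, two-sided) across 13022 genes: variants against KK over 18 libraries without a block (whether the study had one is not given in the sources used here), and WWOX, AP-2 and line effects over 17 libraries, without the library labelled CAL-29 KC and with the line as a block. A gene was counted as over 2-fold when its log2 difference exceeded 1. The alternatives were limma-voom, edgeR 4.0.16, DESeq2 1.42.0 (on recovered reads), TMM scaling, a pseudocount of 2 CPM, no filter, the block, and leaving out each line. The scripts had first recovered known changes from simulated data. The numbers pair the samples by cell line, and deviations from the variant means correlated at 0.588 or more within a line, except for the library labelled CAL-29 KC, down to 0.0363. Depth was 13357102 to 17958572 reads on genes, and 3 reads, the floor of detection, were worth under 0.23 CPM. The 9 lists came from textbook roles: PERK and ATF4 targets, ER-associated degradation, other ER folding factors, N-glycosylation, translocation, COPII transport, stress regulators, cytosolic and mitochondrial chaperones, and sterol synthesis. The genes and lists were chosen with earlier results of these data known. Named were 12 genes fixed by role (HSPA5, HSP90B1, CALR, XBP1, ATF6, ERN1, EIF2AK3, HERPUD1, DNAJB9, SDF2L1, CRELD2 and MANF), the 3 highest and lowest in the WWOX effect and the 5 largest differences per pair of lines, and others as examples of their role, chosen after their values were seen. Promoter windows are from RefSeq (GRCh38.p14), with none used for DERL1, PDIA3 and SEC24D.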

Additional observations from a re-analysis of the deposited data

Results flagged for a closer look

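The WWOX differences here are W minus K at the same second vector, on the log2 scale. For some genes they were all above 0 in a line and all below 0 in another line. How many of all genes meet this rule was not counted. The differences between line means were not tested pair by pair. The test of the interaction over all 3 lines called none of them. Between RT-112 and HT-1376, with 3 pairs each, this held for DNAJB9 (mean difference between the lines 1.42), ERO1B (1.62) and HSPA13 (1.07), which were above 0 in RT-112 and below 0 in HT-1376. It held in the other direction for SDF2L1 (−0.51), CRELD2 (−0.75), HYOU1 (−0.80), DERL2 (−1.13), SEC61B (−0.83) and SELENOS (−0.71). Some single differences were near 0, such as 0.003 for DNAJB9 and 0.014 for HSPA13 in RT-112 and 0.016 for CRELD2 in HT-1376. Levels were low for ERO1B in HT-1376 (0.29 to 1.97 CPM) and DNAJB9 in RT-112 (1.44 to 3.80 CPM). Against CAL-29, with 2 pairs because the library labelled CAL-29 KC was left out, SYVN1 was above 0 in RT-112 (difference 1.05) and in HT-1376 (1.25) and below 0 in CAL-29, as were SEC61B (1.28) and SELENOS (1.10) in HT-1376 against CAL-29. The lowest interaction p of these were those of SELENOS (limma adjusted p = 0.0948) and SEC61B (adjusted p = 0.105).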

How the results depend on the processing

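Genes called against KK stayed at 0 in all limma settings (block, voom, TMM, pseudocount, filter, each line left out). DESeq2 called 3 (WK), 1 (KA), 5 (KC), 3 (WA) and 9 (WC), and edgeR with the replicate block 5 in KC/KK. With edgeR the WWOX, AP-2α and AP-2γ effects had 16, 1 and 2 genes, and without CAL-29 the WWOX effect had 6 (0 without RT-112 or HT-1376). The interaction of WWOX and line fell from 393 genes to 0 with the library labelled CAL-29 KC included. The WWOX effect in HT-1376 fell from 1118 to 241 genes with it. The fit without the library labelled RT-112 WA was also added after seeing the data. None of the 38 genes was called in any of these. With the replicate block the counts against KK remained 0, and it changed no other call. Leaving out a line put the mean over the 38 genes between −1.15 and −0.19 for WK, −1.11 and −0.18 for WC, −0.25 and 0.10 for KA, −0.30 and 0.14 for KC, and 0.01 and 0.18 for WA. Scaling and pseudocount were varied for the counts within CAL-29 and between lines after seeing the data. A pseudocount of 2 CPM gave 28, 29 and 35 genes over 2-fold in WK/KK, WC/KK and WA/WK. TMM scaling raised the genes called lower in HT-1376 than in RT-112 from 4 to 7. In the WWOX effect, values near 0 changed sign: DERL2 to −0.107 with the library labelled CAL-29 KC, and EIF2AK3 to 0.0062 and ERN1 to 0.0232 without the replicate block. Leaving out each line in turn, DERL2 ranged from −0.3803 to 0.2613 and SEC61B from −0.3081 to 0.2738 (both lowest without HT-1376), EIF2AK3 from −0.3331 to 0.0505 (highest without HT-1376), ERN1 from −0.4505 to 0.1345 and MANF from −0.834 to 0.023 (both highest without CAL-29), and ERO1A from −0.0467 to 0.0865 (lowest without RT-112). The cause was not tested. With 1 library per variant and line, no difference within CAL-29 has a replicate.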
